A study of Tetranychus urticae with 5 samples.

Results

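Glutathione transferases (GSTs) of the omega, zeta and kappa classes were followed in the spider mite Tetranychus urticae. They were taken as all array genes whose symbol begins with TuGSTo, TuGSTz or TuGSTk, which gave 4 of the 32 GST names on the array and 4 of its 19601 gene names. These were the omega genes TuGSTo01 (array name Tetur01g02720_TuGSTo01) and TuGSTo02 (Tetur12g04730_TuGSTo02), the zeta gene TuGSTz01 (Tetur07g03360_TuGSTz01) and the kappa gene TuGSTk01 (Tetur22g02430_TuGSTk01). Each had 3 probes, and all 4 were among the 15861 genes tested. The class of each gene rests on its symbol, since the files hold no sequence with which to check it.

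RNA came from whole deutonymph females, pooled at about 200 mites per extract, so that fewer cells of a type and less RNA per cell cannot be told apart. SR-VP and SR-TK are strains resistant to spirodiclofen, an acaricide that blocks acetyl-CoA carboxylase, and were kept under 5000 and 1000 mg/L of it, respectively. LS-VL is the reference strain, which grew on the same bean host without the selection. Each of 5 arrays carried resistant-strain RNA labelled with Cy5 together with LS-VL RNA labelled with Cy3. SR-VP had 3 such arrays, SR-TK had 2, and the dyes were never swapped. The labels name the arrays biological replicates but do not say that LS-VL was extracted anew for each, and the p-values may therefore miss some of the variation of LS-VL. A gene-specific dye bias cannot be told apart from a difference between a resistant strain and LS-VL.

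Glutathione transferases couple the tripeptide glutathione to electrophilic compounds. The omega, zeta and kappa classes are found across many animal groups and are set apart from the delta and mu classes, which are often studied for their part in handling pesticides. In mammals, omega enzymes carry a cysteine in the active site and reduce mixed disulfides and dehydroascorbate. The zeta enzyme of mammals is maleylacetoacetate isomerase, which acts late in tyrosine breakdown, and the mammalian kappa enzyme lies in mitochondria and peroxisomes. These roles were not measured here.

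The share of spots well above background ran from 54.3% to 75.9% in Cy5 and from 59.2% to 71.5% in Cy3, and SR-VP replicate 3 was lowest in both. No spot was saturated. All 60 values of the 12 GST probes were well above background in both channels, and none was marked as an outlier. Symbols on the array gave no yolk, cuticle, silk, gut or germ line markers, so stage and tissue makeup could not be checked.

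The first question was how bright these genes were in each strain. Signals are log2 values after background correction and normalization, and the percentile of a gene is the share of the tested genes that it equalled or exceeded in that channel on that array. A probe's brightness depends on its sequence, so these percentiles describe signal and not transcript number, and the 4 genes are not ranked against each other. TuGSTo01 was steady in LS-VL, with log2 signals of 11.44, 11.37 and 11.35 on the SR-VP arrays and 11.36 and 11.52 on the SR-TK arrays. Its mean of 11.41 ± 0.07 (SD, n = 5 arrays) placed it between percentiles 88.8 and 90.04. In SR-VP its signals were 11.40, 11.44 and 11.35, and in SR-TK they were 11.36 and 11.68. The strains overlapped with LS-VL in this gene.

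TuGSTk01 had log2 signals of 10.78, 10.74, 10.55, 10.79 and 10.64 in LS-VL, in the order SR-VP replicates 1 to 3 and SR-TK replicates 1 and 2. This spans percentiles 81.7 to 84.3, with a mean of 10.70 ± 0.10 (SD, n = 5). These gene values average probes of unlike level. In LS-VL probe 78 (number in the probe name) lay between 9.46 and 9.63, and probes 76 and 77 between 10.95 and 11.80. On every array the gene value was higher in the resistant strain, at 10.89, 11.11 and 10.77 in SR-VP and 11.06 and 10.80 in SR-TK. The SDs of TuGSTo01 and TuGSTk01 over the LS-VL channels were below the median SD of all genes, 0.16, and below the median of 0.19 among the 1586 genes of like LS-VL signal.

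TuGSTz01 had LS-VL signals of 12.74, 12.93, 12.06, 12.62 and 12.47 in the same order, between percentiles 93.2 and 96.1. TuGSTo02 had 13.16, 13.35, 11.54, 12.95 and 12.36, between percentiles 90.4 and 97.1. In both genes SR-VP replicate 3 was the lowest array and SR-TK replicate 2 the next lowest. The SD over the LS-VL channels was 0.33 for TuGSTz01 and 0.73 for TuGSTo02, wider than in 85.2% and 98.6% of all genes. In each gene 1 probe carried most of this spread, as described further below.

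**Figure D1:**
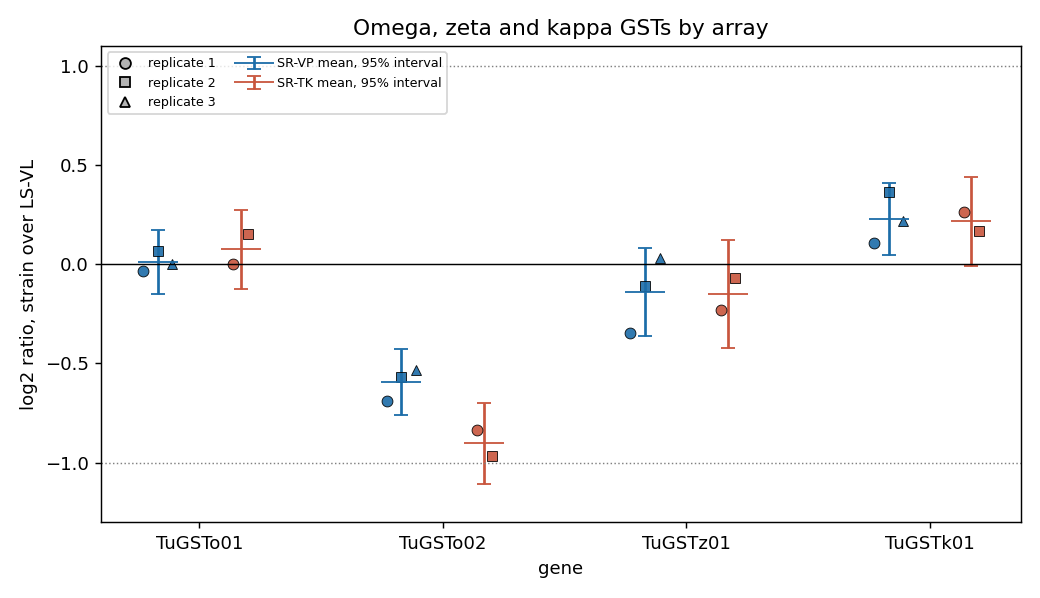
Log2 ratio of the resistant strain over LS-VL for each of the 4 genes. Points are single arrays, horizontal bars are the means over 3 SR-VP and 2 SR-TK arrays, and vertical bars are 95% intervals of the limma fit; dotted lines mark the minimum of 1 log2 unit for a call. TuGSTo02 lies below 0 on all 5 arrays, while the other 3 genes reach at most 0.36 log2 units from 0.

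The next comparison asked which of these genes differed between a resistant strain and LS-VL. The omega gene TuGSTo02 was lower in both resistant strains. Its log2 ratios were −0.69, −0.57 and −0.53 on the SR-VP arrays and −0.84 and −0.97 on the SR-TK arrays. All 5 arrays were below 0. The mean in SR-VP was −0.59 ± 0.07 (SE, n = 3 arrays; limma, adjusted p = 0.00497), which is 66.2% of the LS-VL level with a 95% interval from 59.0% to 74.3%. In SR-TK it was −0.90 ± 0.08 (SE, n = 2 arrays; limma, adjusted p = 0.00361), or 53.5% of the LS-VL level with an interval from 46.5% to 61.7%. To be called, a gene had to pass an adjusted p of 0.05 and also differ by 1 log2 unit or more, and TuGSTo02 met the first condition but not the second. Only 2.44% of all genes had a lower ratio in SR-VP, where it ranked 388 from the lowest, and 1.17% in SR-TK, where it ranked 187.

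The pass of TuGSTo02 on adjusted p depended on the normalization within arrays. With median centring in place of loess its log2 ratios were −0.27 in SR-VP (adjusted p = 0.109) and −0.30 in SR-TK (adjusted p = 0.107). Median centring leaves a trend with signal in these arrays: the 1586 genes of like LS-VL signal then had a median log2 ratio of 0.32 in SR-VP and 0.62 in SR-TK, against −0.01 and −0.02 with loess. Loess removes such a trend by construction, so its medians near 0 do not show which setting is right. The source of the trend was not tested. With loess and only the SR-TK arrays in the limma fit, the TuGSTo02 ratio in SR-TK was unchanged and the adjusted p rose to 0.0747.

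TuGSTk01, the kappa gene, was slightly higher in the resistant strains on all 5 arrays without passing the test. Its log2 ratios were 0.11, 0.36 and 0.22 in SR-VP and 0.27 and 0.17 in SR-TK. The means were 0.23 ± 0.07 (SE; 95% interval 0.05 to 0.41; limma, unadjusted p = 0.0212, adjusted p = 0.113) and 0.22 ± 0.09 (interval −0.01 to 0.44; adjusted p = 0.209). It passed on adjusted p only with median centring, at 0.50 (adjusted p = 0.0188) and 0.74 (adjusted p = 0.00665). The 1586 genes of like LS-VL signal then had median log2 ratios of 0.28 in SR-VP and 0.53 in SR-TK.

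TuGSTz01, the zeta gene, had log2 ratios of −0.35, −0.11 and 0.03 in SR-VP and −0.23 and −0.07 in SR-TK. The SR-VP arrays lay on both sides of 0. Neither mean passed, with −0.14 ± 0.09 in SR-VP (95% interval −0.36 to 0.08; adjusted p = 0.384) and −0.15 ± 0.11 in SR-TK (interval −0.42 to 0.12; adjusted p = 0.456). With median centring both means were positive, at 0.18 and 0.46, the latter with an adjusted p of 0.0183. Both lay below the medians of genes of like LS-VL signal under that setting, 0.32 in SR-VP and 0.62 in SR-TK.

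TuGSTo01, the other omega gene, was at −0.03, 0.07 and −0.00060 in SR-VP and −0.0010 and 0.15 in SR-TK. Both strains had arrays on either side of 0. Its means were 0.01 ± 0.07 (95% interval −0.15 to 0.17; adjusted p = 0.937) and 0.08 ± 0.08 (interval −0.12 to 0.27; adjusted p = 0.622). The upper bounds correspond to 113% of the LS-VL level in SR-VP and 121% in SR-TK. With median centring its mean was 0.30 in SR-VP and 0.64 in SR-TK (adjusted p = 0.00823). Genes of like LS-VL signal then had medians of 0.28 and 0.53. The spread of its ratio within strains was 0.07 log2 units, and 15.9% of all genes had a smaller spread.

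The 2 omega genes differed in their ratios within each array. TuGSTo01 exceeded TuGSTo02 by 0.53 to 1.12 log2 units over the 5 arrays. Under median centring, TuGSTo02 minus TuGSTo01 was −0.57 in SR-VP and −0.95 in SR-TK. Over the 19 settings computed for each strain it ran from −0.75 to −0.57 in SR-VP and from −1.12 to −0.84 in SR-TK. TuGSTo02 had the lowest ratio of the 4 genes in each of them. Many of these settings repeat the main values of −0.61 and −0.98 exactly and are no separate check. Among them are other probe filters, only a strain's own arrays, and leaving out an array of the other strain. This pair was singled out after its values were seen, so no test is given.

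**Figure D2:**
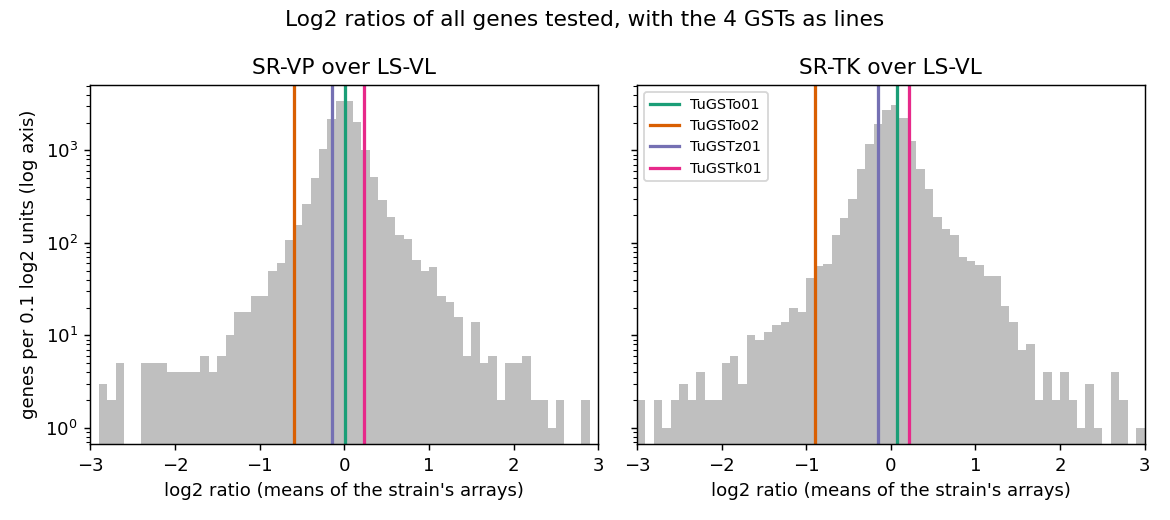
Histogram of the mean log2 ratios of all 15861 genes in SR-VP (left) and SR-TK (right), with the number of genes per bin on a log axis and coloured lines for the 4 GSTs. TuGSTo02 stands in the lower tail of both histograms and the other 3 lines stand in the bulk; the axis ends at 3 log2 units on either side.

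None of the 4 genes was called in either strain by limma, against 1.95% of all genes in SR-VP and 2.28% in SR-TK. At an unadjusted p under 0.05 there were 2 of 4 in SR-VP, TuGSTo02 and TuGSTk01, and 1 of 4 in SR-TK, TuGSTo02. Of all genes, 26.9% in SR-VP and 25.2% in SR-TK had an unadjusted p this low, and nothing is read from these counts of 4. On adjusted p alone, 1 of 4 was lower and 0 of 4 were higher in each strain. Of all genes, 5.45% were lower and 5.85% higher on this rule in SR-VP, and 3.61% were lower and 4.73% higher in SR-TK. The median log2 ratio of the 4 genes was −0.06 in SR-VP and −0.04 in SR-TK, beside 0.00033 and 0.02 for all genes tested. Both strains were set against LS-VL in the same dye, so their directions are not independent of each other.

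SR-TK was next set against SR-VP, a comparison in which any dye bias shared by the 5 arrays drops out. By mean ratio, the order of the TuGSTo02 level was LS-VL, SR-VP, SR-TK from highest to lowest. With median centring, SR-TK differed from SR-VP in this gene by only −0.03 log2 units. With loess, the TuGSTo02 ratios on the SR-TK arrays were all below those on the SR-VP arrays. The difference of −0.31 ± 0.11 log2 units (SE, 95% interval −0.57 to −0.04) did not pass (limma, unadjusted p = 0.0293, adjusted p = 0.459). Of all genes, 0.214% were called in this comparison. The other 3 genes differed by 0.06 ± 0.10 (TuGSTo01), −0.01 ± 0.14 (TuGSTz01) and −0.01 ± 0.12 (TuGSTk01), with adjusted p-values of 0.923, 0.993 and 0.989. Their 95% intervals reached −0.36 and 0.34 at the widest, for TuGSTz01, and so still hold changes of that size between the resistant strains.

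**Figure D3:**
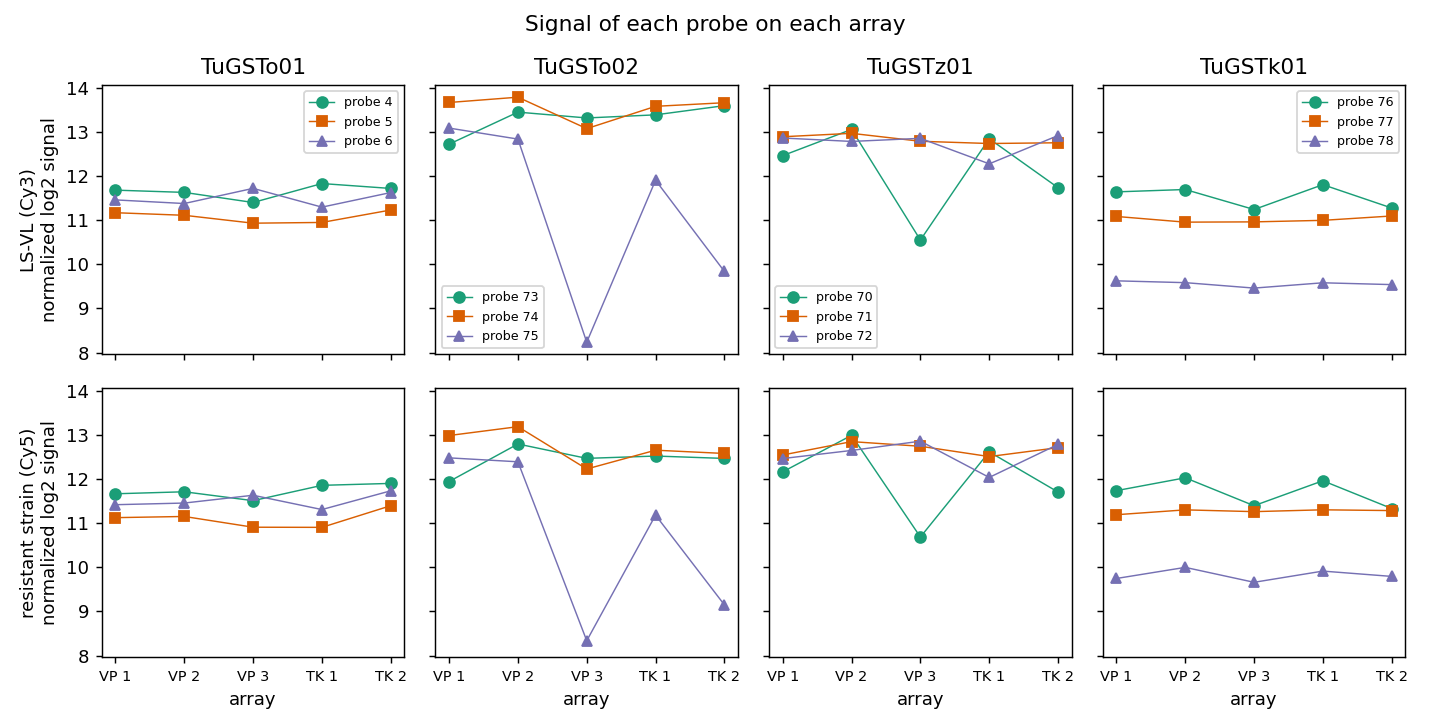
Normalized log2 signal of each of the 3 probes per gene on each array, with LS-VL (Cy3) in the upper row and the resistant strain (Cy5) in the lower; VP and TK with a number stand for SR-VP and SR-TK replicates. Probe 75 of TuGSTo02 and probe 70 of TuGSTz01 fall on SR-VP replicate 3 and SR-TK replicate 2 in both channels.

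Single probes were then followed, each named by its number in the array's probe name. For TuGSTo02, probes 73 and 74 gave ratios of −0.76 ± 0.09 and −0.71 ± 0.09 (SE) in SR-VP when each probe was fitted on its own (adjusted p = 0.00405 and 0.00463 over 44268 probes). In SR-TK they gave −0.996 ± 0.11 and −1.003 ± 0.11 (adjusted p = 0.00432 and 0.0038), where probe 74 passed the minimum of 1 log2 unit and probe 73 missed it. Probe 75 gave −0.32 ± 0.14 in SR-VP (adjusted p = 0.216) and −0.71 ± 0.17 in SR-TK (adjusted p = 0.058). On SR-VP replicate 3, the log2 ratio of probe 75 was 0.10 while probes 73 and 74 both stood at −0.85.

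That array is where the signal of probe 75 was lowest. In LS-VL its log2 signals were 13.08, 12.84, 8.24, 11.90 and 9.84, in the order SR-VP replicates 1 to 3 and SR-TK replicates 1 and 2, and in the resistant strains they were 12.48, 12.39, 8.34, 11.18 and 9.15. Both channels were low together on SR-VP replicate 3 and SR-TK replicate 2. On SR-VP replicate 3 the raw median intensities of probe 75 were 266 in Cy3 and 606 in Cy5, against 4693 and 8078 for the same probe on SR-VP replicate 1. Probe 70 of TuGSTz01 did likewise, with LS-VL signals of 12.46, 13.05, 10.55, 12.84 and 11.74. The other 2 probes of TuGSTz01 stayed between 12.27 and 12.96 in LS-VL.

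Both probes lie at the lower edge of the array, probe 75 in row 379 and probe 70 in row 376 of 384 rows, and none of the other 10 probes lies beyond row 346. Among 254 bright probes of rows 369 to 384 (raw Cy3 median over arrays above 1000), LS-VL signals deviated from each probe's own median by a median of −0.82 on SR-VP replicate 3 and −0.93 on SR-TK replicate 2. On the other 3 arrays these medians lay between 0.03 and 0.23. On SR-VP replicate 3, 28.7% of those edge probes with a value were down by at least 2 log2 units, against 0.916% of 8954 bright probes in the other rows. On SR-TK replicate 2 these shares were 25.5% and 0.358%.

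**Figure D4:**
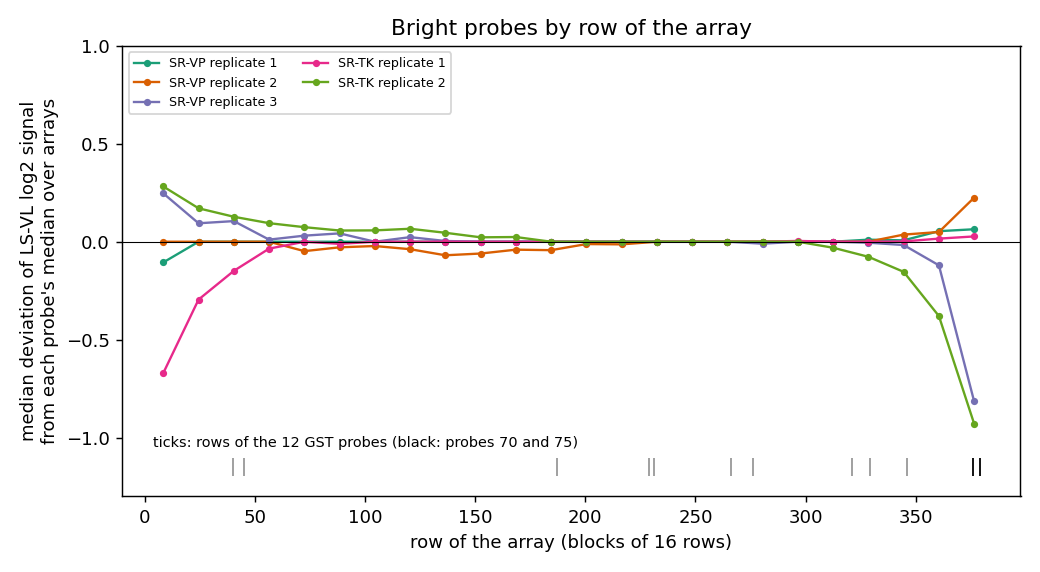
Median deviation of the LS-VL log2 signal of bright probes from each probe's own median over the 5 arrays, by block of 16 rows; ticks mark the rows of the 12 GST probes. SR-VP replicate 3 and SR-TK replicate 2 fall to −0.82 and −0.93 in the last block, where probes 70 and 75 lie, and SR-TK replicate 1 falls to −0.67 in the first.

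The log2 ratios of the edge probes deviated by a signed median of 0.05 on SR-VP replicate 3 and 0 on SR-TK replicate 2. Shifts up and down cancel in such a median, so it does not give the size of the shift in single probes. The ratio of probe 75 was 0.10 on SR-VP replicate 3, against −0.61 and −0.45 on SR-VP replicates 1 and 2. On SR-TK replicates 1 and 2 it was −0.72 and −0.69. Probes 73 and 74 stood at −0.86 and −0.93 on SR-TK replicate 1, and at −1.13 and −1.08 on SR-TK replicate 2. The part of the edge in the values of these genes was not tested beyond leaving out the edge probes. Leaving out probes 70 and 75, a choice made after the data were seen, moved TuGSTo02 to −0.73 in SR-VP (adjusted p = 0.00376) and to −0.999 in SR-TK (adjusted p = 0.00385), still just short of a call. The difference between the strains was then −0.27 (adjusted p = 0.610). The 5 array values were then −0.73, −0.63 and −0.85 in SR-VP and −0.90 and −1.10 in SR-TK. The SD of TuGSTo02 over the LS-VL channels fell from 0.73 to 0.22 and that of TuGSTz01 from 0.33 to 0.16. TuGSTz01 stayed at −0.17 in SR-VP and −0.16 in SR-TK without its edge probe.

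The probes of the other genes gave like ratios. For TuGSTk01 the 3 probes lay between 0.19 and 0.25 in SR-VP and between 0.11 and 0.29 in SR-TK. For TuGSTo01 they lay between −0.02 and 0.06 in SR-VP and between 0.06 and 0.10 in SR-TK. The 3 probes of TuGSTz01 lay between −0.18 and −0.08 in SR-VP and between −0.19 and −0.13 in SR-TK. None of these 9 probes passed on adjusted p in either strain. Whether a probe also binds a related transcript could not be checked without probe sequences.

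Genes with the most similar ratios were sought among 349 others with a symbol, by the root mean square difference over the 5 arrays. Closest to TuGSTo02 were TuGSTd09, a GST of the delta class, at 0.18 log2 units, and pABC-06 at 0.19. TuGSTd09 stood at −0.39 in SR-VP and −0.97 in SR-TK. Closest to TuGSTz01 were the cytochrome P450 CYP383A1 (0.06) and Cytc1 (0.11), and closest to TuGSTk01 the esterase TuCCE-48 (0.07) and pABC-23 (0.10). TuGSTo01 had pABC-12 (0.08) and GABA2 (0.08). Among all genes, 345 lay at least as close to TuGSTo01 as pABC-12 did, while 24 lay at least as close to TuGSTo02 as TuGSTd09 did.

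The remaining 27 GSTs tested carry delta, mu or inc names. On adjusted p alone, 10 of 27 were higher and 1 lower in SR-VP, beside 5.85% and 5.45% of all genes. In SR-TK 6 were higher and 3 lower, beside 4.73% and 3.61% of all genes. With the minimum of 1 log2 unit, 3 were higher (TuGSTd04, TuGSTd06 and TuGSTinc03) and 0 lower in SR-VP, where 1.12% of all genes were higher and 0.832% lower. In SR-TK the same 3 were higher and TuGSTm11 was lower, where 1.39% of all genes were higher and 0.895% lower. Their median log2 ratio was 0.21 in SR-VP and 0.11 in SR-TK. With 4 omega, zeta and kappa genes, a difference between these classes was not tested.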

How the data were processed

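The intensity of each spot was deposited by the authors as scanner output, with local background intensities, flags, and processed intensities (background subtracted, dyes normalized), per the file headers. The submitters' processing notes name Agilent Feature Extraction 10.5. The deposited log10 ratio is that of processed Cy5 over Cy3 and served as a check; over spots it correlated with the log2 ratios computed here by 0.77 to 0.89. All 5 arrays lay on 1 slide, per the file headers.

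Median foreground signals were corrected by normexp (offset 50), then loess within arrays (control spots at weight 0) and Aquantile between arrays (limma 3.58.1, R 4.3.3), giving log2 values. Outlier spots were left out (874 values). A probe was kept if 2 or more arrays of a strain had it well above background in 1 and the same channel, names starting with Rep were left out, and the probes of a gene were averaged. All 5 arrays entered a single limma fit with a coefficient for each strain (3 residual and 3.07 prior degrees of freedom), in which the 2 SR-TK arrays share the spread estimated with the 3 of SR-VP. p-values were adjusted by Benjamini-Hochberg over 15861 genes. The number of arrays limits the precision.

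The genes and lists were chosen with earlier results of these data known. The genes named are all 4 members with their probes, the 2 closest genes with a symbol per member, and any called gene among the other GSTs; probes 70 and 75, and the pair of omega genes, were singled out after their values were seen. Each member's number also occurs as a plain array name, which was not used because it was not checked here whether equal numbers name the same gene. The authors' deposited lists of fold changes, which name genes by number, were not used for the same reason.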

Additional observations from a re-analysis of the deposited data

Results flagged for a closer look

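Among 16 sets of 5 LS-VL values tested for a single array far from the others (4 genes and their 12 probes), 1 was flagged: probe 72 of TuGSTz01. Its lowest value, 12.27 on SR-TK replicate 1, was separated from the next by a gap of 0.792 of the whole range, above the critical value of 0.71. Chance flags about 1 in 20 such sets. The probe lies in row 45 of the array, and bright probes of rows 33 to 48 deviated by a median of −0.15 on that array.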

How the results depend on the processing

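Among the alternatives run, TuGSTo02 stayed below 0 in both strains. On adjusted p it missed in SR-VP with median centring, and in SR-TK with median centring and with only its own arrays, and it passed under the other alternatives. Of these, adjusted p alone and leaving out Aquantile cannot move its ratio or p. Without 1 SR-TK array, the lone array is assumed to vary like those of SR-VP. The single-array omissions left it between −0.63 and −0.55 in SR-VP and between −0.97 and −0.84 in SR-TK, with adjusted p up to 0.049 (SR-VP, without SR-VP replicate 1). The TuGSTo02 difference between strains did not pass under any of 17, with adjusted p from 0.412 to 0.960. Small values changed sign. TuGSTo01 was −0.018 in SR-VP with processed signals, and without single arrays ran from −0.017 to 0.033 in SR-VP, −0.0010 to 0.15 in SR-TK and −0.012 to 0.14 for the difference. The difference in TuGSTz01 was 0.28 with median centring, 0.017 with the median of probes, 0.076 with the replicate block, −0.11 to 0.076 without single arrays and 0.012 without probes 70 and 75 (chosen after seeing the data). That in TuGSTk01 was 0.24 with median centring, 0.031 with the median of probes and −0.075 to 0.053 without single arrays. TuGSTz01 against LS-VL turned to 0.18 and 0.46 with median centring. The cause was not tested beyond the signal trend given above.

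Counts of called genes over the whole table were 310 (SR-VP), 362 (SR-TK) and 34 (SR-TK minus SR-VP). With an offset of 10 they were 483, 565 and 53, with processed signals 655, 806 and 19, and with each probe fitted on its own 1076, 1230 and 168. Median centring gave 753 in SR-TK, of which 622 were higher, 77 for the difference, and 430 in SR-VP, of which 304 were higher, against 178 of 310 and 220 of 362. The median of all genes then moved to 0.12 and 0.22. Adjusted p alone gave 1792 and 1323. Probes above background on every array gave 11 for the difference, and only its own arrays gave 70 in SR-TK. Leaving out single arrays gave 267 to 313 in SR-VP, 340 to 403 in SR-TK and 0 to 13 for the difference (0 without SR-VP replicate 3, where limma gave 1904 genes with unadjusted p below 0.05; 4 and 7 without SR-VP replicates 1 and 2, 13 and 7 without SR-TK replicates 1 and 2). With the replicate number as a block, the counts were 295, 265 and 2, and TuGSTo02 kept its pass on adjusted p (0.0295 and 0.0477). Nothing says that equal numbers share a source, and deviations correlated across genes by 0.37 and 0.16 for equal numbers and also by 0.16 for SR-VP replicate 3 with SR-TK replicate 2. The deviations of the 2 SR-TK arrays are mirror images, so these values do not show pairing. Mean foreground signals were not run because the files read here hold medians.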
